A study of Mus musculus with 9 samples.

Results

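The genes described here are 42 genes of glycolysis, pyruvate use and the shuttles that carry reducing equivalents into mitochondria, chosen by gene symbol from a table of 25611 genes measured by RNA sequencing in mouse pancreatic islets. All 42 symbols were found, each on 1 line, and 39 of them passed the filter on low counts and had a fit, among 14529 genes with a fit. The other three, Hk2, Fbp2 and Eno1, had too few counts and are given by their values. The filter keeps a gene that is detected in either group, so the 39 are the genes with enough counts and not the whole set.

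Glycolysis splits glucose into pyruvate in the cytosol. In beta cells most pyruvate goes on into mitochondria, through pyruvate dehydrogenase or through pyruvate carboxylase, and the cytosolic NADH is reoxidised by the glycerol phosphate and malate-aspartate shuttles rather than by making lactate. Beta cells are known for keeping lactate dehydrogenase A (Ldha), the monocarboxylate transporter MCT1 (Slc16a1) and the low-Km hexokinases Hk1 and Hk2 low, so that insulin release follows blood glucose and not exercise-derived pyruvate.

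The RNA set held 7 libraries of hand-picked islets from mice aged 4 weeks, each from a separate mouse per the design text. The 4 control mice carried the conditional allele alone (Glis3fl/fl), and the 3 mice labelled knockout carried it with the driver (Pdx1-Cre;Glis3fl/fl), in which Cre acts in the lineage that has expressed Pdx1, including acinar and duct cells. Both groups carried the conditional allele, and none carried the driver alone, so driver and deletion cannot be told apart. Binding of Glis3, a Krüppel-like zinc finger transcription factor, came from 1 list of 21254 peaks in islets of mice aged 8 weeks with the genotype Glis3-eGFP, pulled down with an antibody against GFP, with no replicate. Glis3 itself stood at 37.8 ± 6.95 CPM in controls (SD, n = 4) and rose to 54.2 ± 3.11 CPM in the other group (SD, n = 3; log2 0.52, SE 0.14, edgeR adjusted p = 0.0257). Whole-gene counts cannot check a deleted exon, so this group is called labelled knockout throughout.

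Levels are given as CPM, the reads assigned to a gene per 1e6 assigned reads after TMM scaling, and they are compared within a gene only, since transcript lengths were not used. Totals ran from 12099365 to 48054551 counts per library. Islet markers were present in every library, and the summed level of 9 beta cell markers ran from 329400 to 550500 CPM in controls and from 189100 to 299400 CPM in labelled knockouts. Of these 9 markers 5 fell (Ins1, Ins2, Slc2a2, Mafa and Nkx6-1), Iapp rose (log2 1.84, edgeR adjusted p = 3.82e-06), and Pdx1, Ucn3 and G6pc2 did not pass. Ins1 and Ins2 made up most of the sum in controls. The 9 duct markers summed to 517.4 to 561.5 CPM in controls and 1182 to 1436 CPM in labelled knockouts, with 2 of 8 tested markers past the test, both higher (Spp1 and Epcam). The 21 acinar markers summed to 952.5 to 5928 CPM and 2960 to 16150 CPM, overlapping, highest in labelled knockout 2. The 9 stromal markers summed to 305.5 to 396.8 CPM and 446.1 to 578.8 CPM, with 2 of 9 higher. Of 19 tested acinar markers 0 passed the edgeR test, with 1 at an unadjusted p under 0.05, 1 called by DESeq2 and 0 by limma-voom. Globin genes Hba-a1, Hba-a2, Hbb-bs and Hbb-bt and the amylase gene Amy2a5 had no count in any library. With the acinar marker level as a covariate 5 of the 39 genes with a fit fell and 6 rose. Over all 14529 tested genes 429 fell and 879 rose with this covariate, against 763 and 1268 without it. The part of duct, stromal and beta cells in the results below was not tested, and in bulk islets fewer cells of a type and less RNA per cell cannot be told apart.

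Of the 39 genes, 5 fell, 7 rose and 27 did not pass the test (edgeR quasi-likelihood test, Benjamini-Hochberg adjusted p under 0.05 over all genes). Over all tested genes 5.25% fell, 8.73% rose and 14.0% changed either way, against 12.8%, 17.9% and 30.8% of the 39. The genes that fell were Pcx, Gpd2, Pfkfb2, Pdk4 and Aldoc, each to about the same extent, from 2.12-fold to 2.28-fold lower. The genes that rose were Me3, Gapdh, Pdk3, Pkm, Gpi1, Me1 and Pfkfb3, from 1.48-fold for Gpi1 to 4.08-fold for Me3. The 5 that fell encode, in that order, pyruvate carboxylase, mitochondrial glycerol phosphate dehydrogenase, a 6-phosphofructo-2-kinase, a pyruvate dehydrogenase kinase and an aldolase isoenzyme. The median log2 fold change of the 39 was 0.27, against 0.007 over all tested genes, with 24 above and 15 below 0. With scaling by library size alone these medians were 0.45 and 0.18, with 12 genes of the 39 higher in place of 7. Over all 14529 tested genes 1854 were then higher in place of 1268, and 324 lower in place of 763. In 25 of the 39 the groups did not overlap (8 lower and 17 higher), or 64.1%, against 26.6% of all tested genes (12.6% lower and 14.0% higher).

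**Figure D1:**
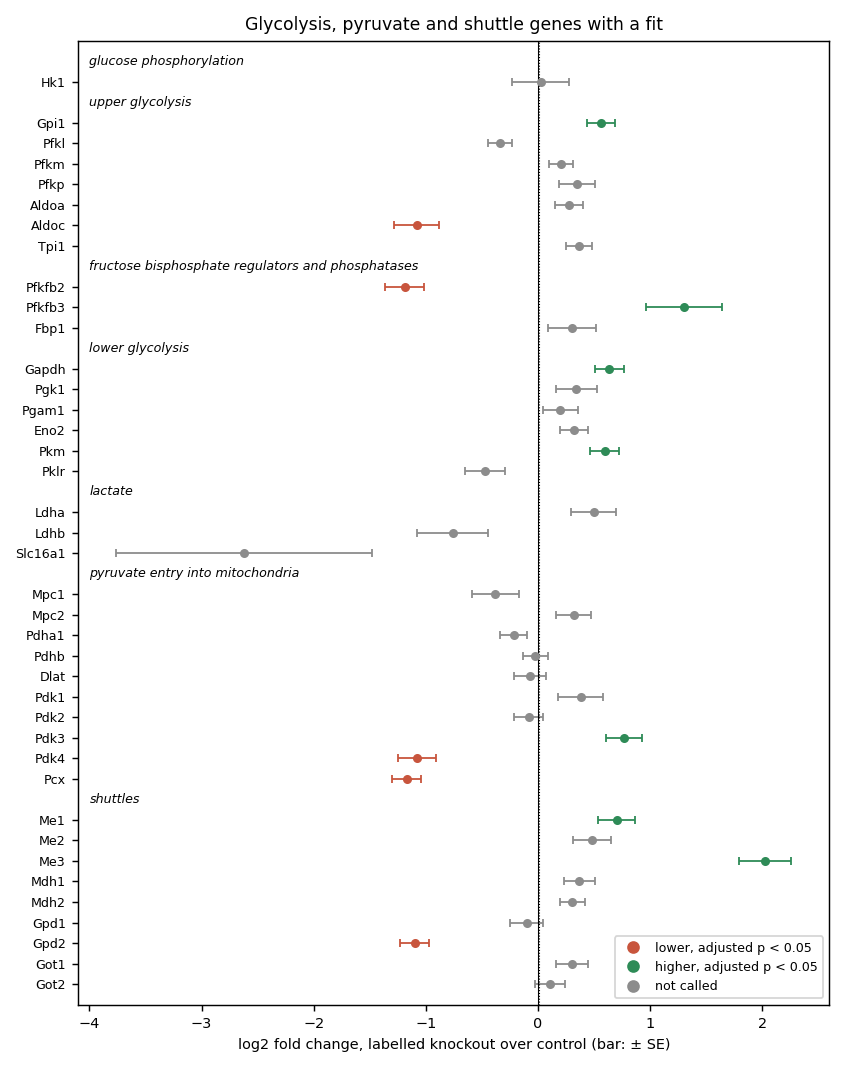
Log2 fold change of labelled knockout over control for the 39 genes with a fit, in pathway order, as points with bars of 1 SE each way. Genes that fell (red) lie near −1.1, from Pdk4 at −1.08 to Pfkfb2 at −1.19, and Me3 at 2.03 lies farthest to the right; the dotted line is the median of all tested genes.

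Pyruvate carboxylase and the glycerol phosphate shuttle showed the smallest p-values among the falls. Pcx (chromosome 19, 4510472 to 4621752, plus strand, mm10), which turns pyruvate into oxaloacetate and feeds the pyruvate cycling known in beta cells, stood at 114.9, 119, 115.8 and 108.3 CPM (controls 1 to 4) against 41.95, 52.87 and 57.49 CPM (labelled knockouts 1 to 3). Every labelled knockout was below every control, and the means went from 115 ± 4.50 CPM (SD, n = 4) to 50.8 ± 7.98 CPM (SD, n = 3), or 2.25-fold lower (log2 fold change −1.17, SE 0.13, edgeR adjusted p = 3.08e-05). The gene Lrfn4 lies within Pcx on the opposite strand and had 8914 counts over all libraries against 16672 for Pcx. Without a stated strand option their reads cannot be told apart there, and Lrfn4 itself stood at log2 −0.28 (SE 0.12, edgeR adjusted p = 0.158). Gpd2 (chromosome 2, 57237678 to 57370719, plus strand), the mitochondrial glycerol-3-phosphate dehydrogenase that passes electrons from cytosolic NADH to the respiratory chain, stood at 81.3, 76.71, 77.75 and 78.83 CPM (controls 1 to 4) against 39.58, 30.06 and 40.48 CPM (labelled knockouts 1 to 3). The controls were close together, and the means went from 78.6 ± 1.97 CPM (SD, n = 4) to 36.7 ± 5.77 CPM (SD, n = 3), or 2.14-fold lower (log2 fold change −1.10, SE 0.13, edgeR adjusted p = 5.12e-05). Its cytosolic partner Gpd1, which makes glycerol 3-phosphate, stood at 28.42, 32.77, 33.61 and 32.88 CPM (controls 1 to 4) against 34.45, 31.75 and 23.21 CPM (labelled knockouts 1 to 3). The groups overlapped for Gpd1 (log2 −0.10, edgeR adjusted p = 0.715).

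Of the malic enzymes, which make pyruvate from malate, Me3 and Me1 rose. Me3 (chromosome 7, 89632818 to 89854359, plus strand), the mitochondrial NADP-dependent form, stood at 2.473, 3.462, 3.775 and 3.015 CPM (controls 1 to 4) against 11.66, 13.26 and 13.91 CPM (labelled knockouts 1 to 3). It rose from 3.18 ± 0.566 CPM (SD, n = 4) to 12.9 ± 1.16 CPM (SD, n = 3), the largest of the 12 called changes (4.08-fold; log2 fold change 2.03, SE 0.23, edgeR adjusted p = 4.55e-05). Me1 (chromosome 9, 86581363 to 86695914, minus strand), the cytosolic form and a source of NADPH, stood at 17.52, 15.38, 22.65 and 18.71 CPM (controls 1 to 4) against 33.26, 32.4 and 24.76 CPM (labelled knockouts 1 to 3). It rose from 18.6 ± 3.05 CPM (SD, n = 4) to 30.1 ± 4.68 CPM (SD, n = 3), or 1.63-fold (log2 fold change 0.70, SE 0.17, edgeR adjusted p = 0.0118), with control 3 the highest control and labelled knockout 3 the lowest of its group. Me2, the mitochondrial NAD-dependent form, stood at 9.509, 10.74, 8.95 and 10.34 CPM (controls 1 to 4) against 13.96, 13.87 and 13.64 CPM (labelled knockouts 1 to 3). Its groups did not overlap, and the test was not passed (log2 0.48, edgeR adjusted p = 0.0781).

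Of the malate-aspartate shuttle, 0 of 4 enzyme genes passed the edgeR test, with 2 at an unadjusted p under 0.05, 2 called by DESeq2 and 0 by limma-voom. Mdh1, the cytosolic malate dehydrogenase, stood at 162.4, 146.3, 187.2 and 208.4 CPM (controls 1 to 4) against 228.8, 211.8 and 242.2 CPM (labelled knockouts 1 to 3). Mdh2, the mitochondrial form, stood at 123.8, 126.2, 140.3 and 143.5 CPM (controls 1 to 4) against 174.9, 152.7 and 168 CPM (labelled knockouts 1 to 3). For both, each labelled knockout was above each control (Mdh1 log2 0.37, edgeR adjusted p = 0.0912; Mdh2 log2 0.31, edgeR adjusted p = 0.0953). Mdh1 passed with library size alone (edgeR adjusted p = 0.00426), DESeq2 (0.0481), the replicate block (0.0135) or without control 4 (0.0479), and its adjusted p ran from 0.00426 to 0.257 across the settings tried. Mdh2 passed with library size alone (0.0165) or DESeq2 (0.0466), with a range of 0.0165 to 0.245. Got1, the cytosolic aspartate aminotransferase, stood at 16.16, 16.1, 17.47 and 18.86 CPM (controls 1 to 4) against 21.09, 22.33 and 19.97 CPM (labelled knockouts 1 to 3). Its groups did not overlap (log2 0.30, edgeR adjusted p = 0.19), whereas those of the mitochondrial Got2 did (log2 0.10, edgeR adjusted p = 0.67).

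Within the pyruvate dehydrogenase branch the kinases moved apart. These kinases switch the complex off by phosphorylating its E1 alpha subunit. Pdk4 (chromosome 6, 5483351 to 5496278, minus strand), the form best known for rising in fasting, stood at 27.76, 28.1, 27.34 and 37.43 CPM (controls 1 to 4) against 11.73, 14.73 and 16.12 CPM (labelled knockouts 1 to 3). It fell from 30.2 ± 4.86 CPM (SD, n = 4) to 14.2 ± 2.243 CPM (SD, n = 3), or 2.12-fold lower (log2 fold change −1.08, SE 0.17, edgeR adjusted p = 0.000718), with control 4 above the other controls. Pdk3 (chromosome X, 93764616 to 93832095, minus strand) stood at 9.683, 12, 11.02 and 11.97 CPM (controls 1 to 4) against 17.15, 20.35 and 19.58 CPM (labelled knockouts 1 to 3). It rose from 11.2 ± 1.09 CPM (SD, n = 4) to 19.02 ± 1.67 CPM (SD, n = 3), or 1.7-fold (log2 fold change 0.77, SE 0.16, edgeR adjusted p = 0.00591). Pdk1 (log2 0.38, edgeR adjusted p = 0.239) and Pdk2 (log2 −0.08, edgeR adjusted p = 0.738; log2 0.10 with library size alone) overlapped between the groups.

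Of the subunits of the complex and the carrier that brings pyruvate in, 0 of 5 passed the edgeR test, and 0 had an unadjusted p under 0.05 or a call by DESeq2 or limma-voom. Pdha1, the E1 alpha subunit, stood at 41.69, 40.69, 41.4 and 39.96 CPM (controls 1 to 4) against 39.72, 34.9 and 31.31 CPM (labelled knockouts 1 to 3). Its controls lay within a narrow band just above the highest labelled knockout (log2 −0.22, edgeR adjusted p = 0.268). Map3k15 overlaps Pdha1 on the opposite strand and fell (log2 −0.53, SE 0.15, edgeR adjusted p = 0.031), and reads of this pair cannot be told apart where they overlap. The E1 beta subunit Pdhb (log2 −0.02, edgeR adjusted p = 0.927) and the E2 subunit Dlat (log2 −0.07, edgeR adjusted p = 0.805) were on both sides of 0 under other scalings, at 0.15 and 0.10 with library size alone. The mitochondrial pyruvate carrier genes Mpc1 (log2 −0.38, edgeR adjusted p = 0.263) and Mpc2 (log2 0.32, edgeR adjusted p = 0.212) had overlapping groups and opposite signs. Mpc2 passed with library size alone (log2 0.52, edgeR adjusted p = 0.0291; 0.0291 to 0.449 over the alternatives).

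**Figure D2:**
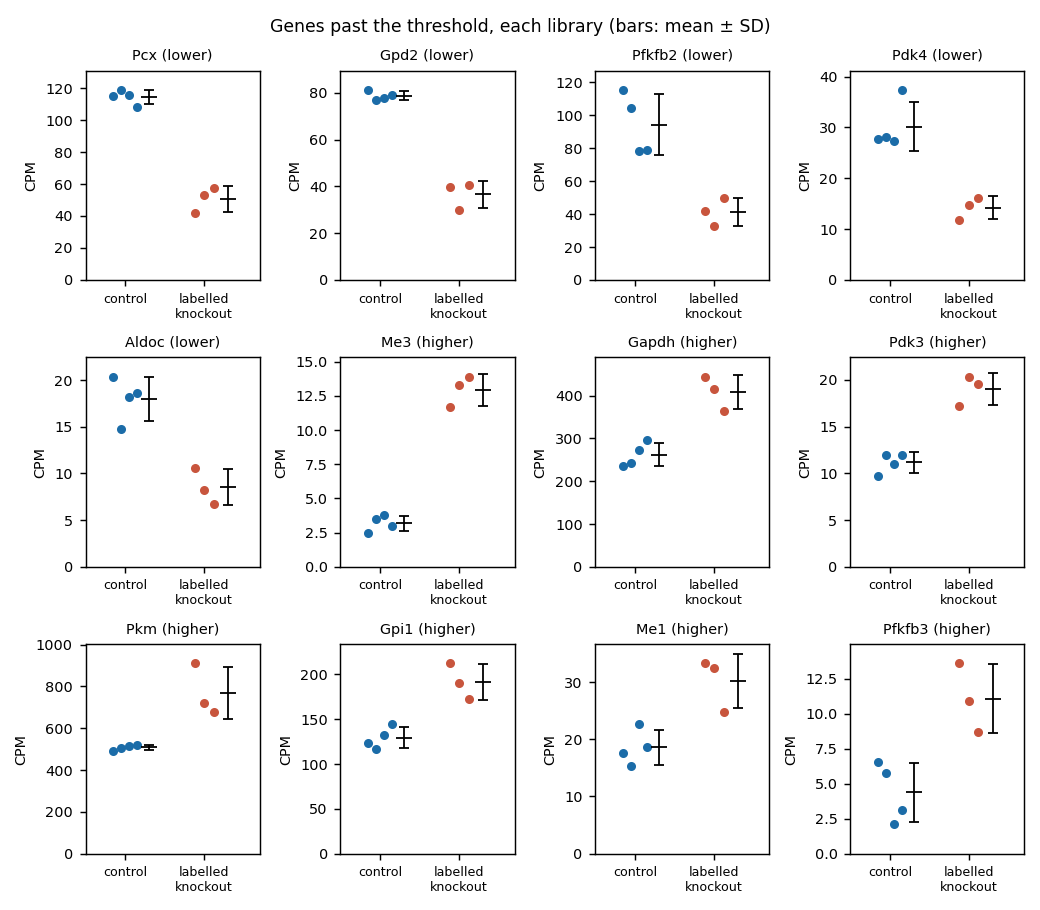
CPM (linear axes from 0) of the 12 genes that passed the test, with 1 point per library for 4 controls (blue) and 3 labelled knockouts (red), and the mean ± SD as a bar. In each of the 12 panels the groups do not overlap, with Pcx at 108.3 to 119 CPM in controls and 41.95 to 57.49 CPM in labelled knockouts.

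The fructose 2,6-bisphosphate enzymes, which set the activator of phosphofructokinase, went opposite ways. Pfkfb2 (chromosome 1, 130689043 to 130729253, minus strand) stood at 115.6, 104.6, 78.42 and 79.07 CPM (controls 1 to 4) against 41.65, 32.96 and 49.74 CPM (labelled knockouts 1 to 3). It fell from 94.4 ± 18.7 CPM (SD, n = 4) to 41.5 ± 8.39 CPM (SD, n = 3), or 2.28-fold lower (log2 fold change −1.19, SE 0.17, edgeR adjusted p = 0.000392), and Yod1, a gene overlapping it on the opposite strand, had 381 counts in all against 14083. Pfkfb3 (chromosome 2, 11471431 to 11553929, minus strand), the form with the highest kinase activity, stood at 6.583, 5.757, 2.131 and 3.111 CPM (controls 1 to 4) against 13.59, 10.93 and 8.725 CPM (labelled knockouts 1 to 3). It rose from 4.40 ± 2.11 CPM (SD, n = 4) to 11.1 ± 2.44 CPM (SD, n = 3), or 2.47-fold (log2 fold change 1.31, SE 0.34, edgeR adjusted p = 0.02), and controls 3 and 4 lay well below controls 1 and 2. The call on Pfkfb3 was lost without control 4 (edgeR adjusted p = 0.0578), labelled knockout 1 (0.0782) or labelled knockout 2 (0.0508) and with the acinar markers as a covariate (0.0619), with log2 values from 1.07 to 1.56 and adjusted p from 0.00317 to 0.0782 over the alternatives. The gluconeogenic phosphatase gene Fbp1 overlapped between the groups (log2 0.30, edgeR adjusted p = 0.395). Its relative Fbp2 had 62, 6 and 15 counts in labelled knockouts 1 to 3 and stood at 0.3135, 0, 0 and 0.04786 CPM (controls 1 to 4) against 4.604, 0.2592 and 0.6643 CPM (labelled knockouts 1 to 3). Labelled knockout 1 carried most of these counts. The groups overlapped, with labelled knockout 2 below control 1. Fbp2 had a fit with no filter (log2 4.21, edgeR adjusted p = 0.0356) and with DESeq2 (log2 4.31, adjusted p = 0.00424). Without labelled knockout 2 it also had one (log2 4.75, edgeR adjusted p = 0.0234). These fits rest mostly on labelled knockout 1 and are not read as a rise.

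In upper glycolysis Gpi1 rose and Aldoc fell. Gpi1 (chromosome 7, 34201327 to 34230336, minus strand), the glucose-6-phosphate isomerase, stood at 123.3, 117.2, 132.8 and 144.6 CPM (controls 1 to 4) against 212.3, 189.9 and 172.2 CPM (labelled knockouts 1 to 3). It rose from 129 ± 11.95 CPM (SD, n = 4) to 191 ± 20.1 CPM (SD, n = 3), or 1.48-fold (log2 fold change 0.56, SE 0.12, edgeR adjusted p = 0.00725). Aldoc (chromosome 11, 78323073 to 78327778, plus strand), the brain-type aldolase, stood at 20.38, 14.8, 18.2 and 18.57 CPM (controls 1 to 4) against 10.62, 8.25 and 6.732 CPM (labelled knockouts 1 to 3). It fell from 17.99 ± 2.33 CPM (SD, n = 4) to 8.53 ± 1.96 CPM (SD, n = 3), or 2.12-fold lower (log2 fold change −1.08, SE 0.20, edgeR adjusted p = 0.00238). The muscle-type aldolase Aldoa stood at 315, 271.3, 317.6 and 324.3 CPM (controls 1 to 4) against 399.2, 328.2 and 386.3 CPM (labelled knockouts 1 to 3), with no overlap in the other direction (log2 0.27, edgeR adjusted p = 0.167; passed with library size alone at 0.0232, 0.0232 to 0.394 over the alternatives).

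The 3 phosphofructokinase genes, which encode subunits of the rate-controlling tetramer, had 0 of 3 calls by edgeR, 2 at an unadjusted p under 0.05, 1 by DESeq2 and 0 by limma-voom. In each the groups did not overlap. The liver-type Pfkl stood at 49.6, 51.34, 44.69 and 49.44 CPM (controls 1 to 4) against 37.27, 39.7 and 38.88 CPM (labelled knockouts 1 to 3). All labelled knockouts were lower (log2 −0.34, edgeR adjusted p = 0.0583; 0.0385 with DESeq2, 0.0385 to 0.577 over the alternatives). The muscle-type Pfkm stood at 58.17, 56.56, 50.04 and 59.06 CPM (controls 1 to 4) against 62.67, 65.57 and 65.32 CPM (labelled knockouts 1 to 3). All labelled knockouts were higher (log2 0.21, edgeR adjusted p = 0.239). The platelet-type Pfkp stood at 15.71, 14.57, 13.21 and 15.89 CPM (controls 1 to 4) against 21.46, 18.88 and 16.61 CPM (labelled knockouts 1 to 3). These were higher too (log2 0.35, edgeR adjusted p = 0.167). Triosephosphate isomerase (Tpi1) stood at 84.29, 83.61, 83.1 and 92.37 CPM (controls 1 to 4) against 122.6, 95.72 and 113.2 CPM (labelled knockouts 1 to 3). It was just short of the threshold (log2 0.36, edgeR adjusted p = 0.0548) and passed with library size alone (0.0157), at least 1 CPM in 3 libraries (0.0477), DESeq2 (0.0294), the replicate block (0.0454) or without labelled knockout 2 (0.0276), with a range of 0.0157 to 0.193. Senp1, Pitrm1 and Spsb2 overlap Pfkm, Pfkp and Tpi1 on the opposite strand.

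In lower glycolysis Gapdh and Pkm rose. Gapdh (chromosome 6, 125161852 to 125166467, minus strand), glyceraldehyde-3-phosphate dehydrogenase and a common reference gene in quantitative PCR, stood at 236.5, 243.5, 272.9 and 295.3 CPM (controls 1 to 4) against 444.5, 414.5 and 364.6 CPM (labelled knockouts 1 to 3). It rose from 262 ± 27.2 CPM (SD, n = 4) to 408 ± 40.3 CPM (SD, n = 3), or 1.56-fold (log2 fold change 0.64, SE 0.13, edgeR adjusted p = 0.00417). Gapdh has many processed copies in the mouse genome, with which reads may be shared. Pkm (chromosome 9, 59656368 to 59679375, plus strand), the muscle-type pyruvate kinase, stood at 492.5, 507.1, 514.6 and 521.2 CPM (controls 1 to 4) against 910.2, 718.4 and 678.3 CPM (labelled knockouts 1 to 3). It rose from 509 ± 12.3 CPM (SD, n = 4) to 769 ± 124 CPM (SD, n = 3), or 1.51-fold (log2 fold change 0.60, SE 0.13, edgeR adjusted p = 0.00654), with labelled knockout 1 the highest library. Its M1 and M2 splice forms are counted together. The liver-type pyruvate kinase Pklr stood at 14, 13.03, 15.4 and 13.35 CPM (controls 1 to 4) against 10.25, 11.23 and 8.68 CPM (labelled knockouts 1 to 3). All its labelled knockouts were lower, and it did not pass (log2 −0.47, edgeR adjusted p = 0.0963).

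Neuron-specific enolase (Eno2) stood at 31.56, 29.83, 37.87 and 29.82 CPM (controls 1 to 4) against 40.54, 39.44 and 40.7 CPM (labelled knockouts 1 to 3). The groups did not overlap, and the test was not passed (log2 0.32, edgeR adjusted p = 0.111). Phosphoglycerate kinase Pgk1 (log2 0.34, edgeR adjusted p = 0.248) and phosphoglycerate mutase Pgam1 (log2 0.20, edgeR adjusted p = 0.444) overlapped between the groups. Pgk1 passed without labelled knockout 2 (edgeR adjusted p = 0.0466, range 0.0466 to 0.841). Eno1, the ubiquitous enolase, had 0 counts in all controls and in labelled knockout 1, and 9 and 2 counts in labelled knockouts 2 and 3. The count table also lists Eno1b on the same strand at 150237324 to 150248873 of chromosome 4, inside the span of Eno1 (150237197 to 150248873), with 0 counts. Reads in the shared span cannot be told apart between these entries, so the count is not read as a level of enolase 1.

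Of the 4 genes normally kept low in beta cells 3 were tested, and 0 passed the edgeR test, with 2 at an unadjusted p under 0.05 and 0 called by DESeq2 or limma-voom. Ldha stood at 13.1, 10.27, 10.72 and 12.54 CPM (controls 1 to 4) against 21.46, 14.73 and 13.33 CPM (labelled knockouts 1 to 3). Each labelled knockout was above each control, the lowest of them by a small margin (log2 0.50, edgeR adjusted p = 0.115; 0.0584 to 0.416 over the alternatives). Hk1 stood at 10.35, 8.421, 13.21 and 9.285 CPM (controls 1 to 4) against 7.351, 14.99 and 8.858 CPM (labelled knockouts 1 to 3). The groups overlapped, with labelled knockout 2 the highest library, and the test was not passed (log2 0.02, edgeR adjusted p = 0.965; log2 −0.34 without labelled knockout 2). Hk2 had 13, 22 and 6 counts in labelled knockouts 1 to 3 and stood at 0.03483, 0.01945, 0.3653 and 0.5265 CPM (controls 1 to 4) against 0.9653, 0.9503 and 0.2657 CPM (labelled knockouts 1 to 3). These levels overlapped between the groups. Slc16a1 stood at 1.567, 0.2917, 1.157 and 0.67 CPM (controls 1 to 4) against 0, 0 and 0.3986 CPM (labelled knockouts 1 to 3). In labelled knockouts 1 and 2 no count was found, which allows up to 0.223 and 0.13 CPM (3 counts, counting error only), and the lowest control was at 0.2917 CPM. The test was not passed (log2 fold change −2.62, SE 1.14, edgeR adjusted p = 0.149), but was without labelled knockout 3 (edgeR adjusted p = 0.0315, range 0.0315 to 0.454), where both remaining libraries were at 0 and the fitted fold is not a measured one. Ldhb, which favours turning lactate to pyruvate, overlapped between the groups and was lowest in labelled knockout 2 at 5.356 CPM (log2 −0.76, edgeR adjusted p = 0.137).

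**Figure D3:**
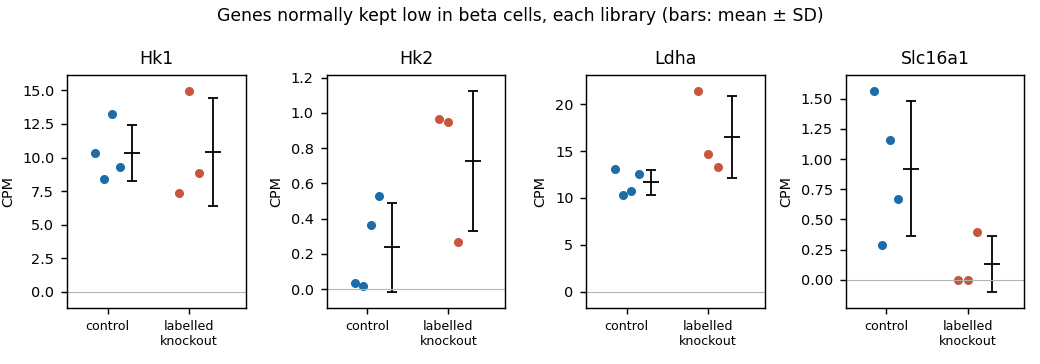
CPM (linear axes) of Hk1, Hk2, Ldha and Slc16a1 in each library, 4 controls in blue and 3 labelled knockouts in red, with the mean ± SD as a bar. The groups overlap for Hk1, Hk2 and Slc16a1, and the Ldha points of labelled knockouts start at 13.33 CPM, just above the highest control at 13.1 CPM.

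Ratios of 2 genes within a library do not depend on the scaling between libraries, and 10 pairs were compared by exact permutation over the 35 assignments of 4 and 3 libraries. The smallest 2-sided p this design can give is 0.0571, so no pair could pass 0.05. The ratio of Aldoc to Aldoa counts was 0.0647, 0.0546, 0.0574 and 0.0573 across controls 1 to 4, against 0.0267, 0.0252 and 0.0175 across labelled knockouts 1 to 3. On the log2 scale this was a difference of −1.36, and the groups did not overlap (exact permutation p = 0.0571, adjusted p = 0.0952 over the 10 pairs). Ldhb to Ldha was 1.58, 1.55, 1.15 and 1.87 (controls) against 0.706, 0.365 and 0.891 (labelled knockouts), a log2 difference of −1.31 with the same p-values. Every control had more Ldhb than Ldha counts and every labelled knockout had fewer, although neither gene passed the test alone. Transcript lengths were not used, so a count ratio above or below 1 does not tell which gene was more abundant.

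Both phosphofructokinase pairs separated the groups. Pfkm to Pfkl was 1.17, 1.1, 1.12 and 1.19 (controls) against 1.68, 1.65 and 1.68 (labelled knockouts), a log2 difference of 0.54. Pfkp to Pfkl was 0.317, 0.284, 0.296 and 0.322 (controls) against 0.576, 0.476 and 0.427 (labelled knockouts), a log2 difference of 0.69. The labelled knockouts lay close together for Pfkm to Pfkl (SD 0.014 on the log2 scale) and farther apart for Pfkp to Pfkl (SD 0.218). Gpd2 to Mdh1, 1 enzyme from each NADH shuttle, was 0.501, 0.524, 0.415 and 0.378 (controls) against 0.173, 0.142 and 0.167 (labelled knockouts), a log2 difference of −1.49. These 3 pairs did not overlap between the groups (exact permutation p = 0.0571, adjusted p = 0.0952 each). Pdk2 to Pdk1 (−0.47), Mdh2 to Mdh1 (−0.07), Got2 to Got1 (−0.19) and Hk2 to Hk1 (2.31) overlapped, and the pair of enolases is not read because Eno1 had almost no counts.

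**Figure D4:**
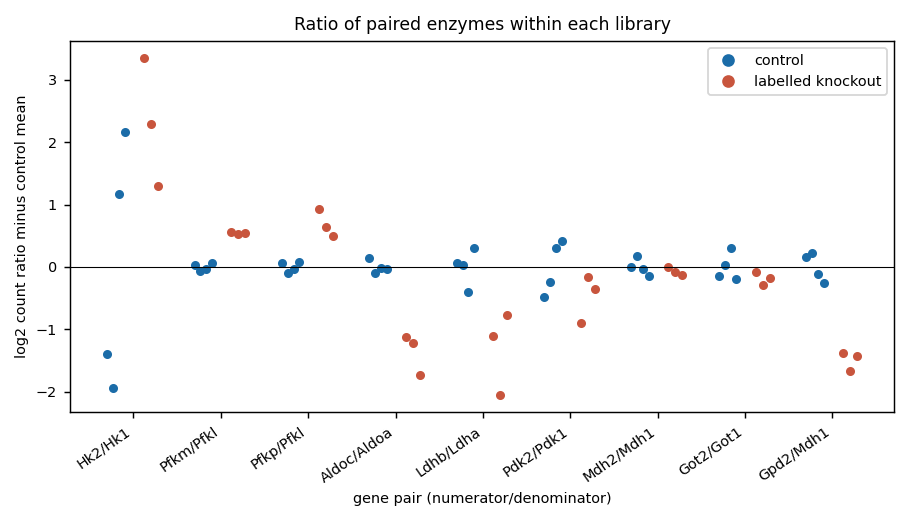
Log2 ratio of the counts of paired genes within each library, minus the mean of the controls, for 9 pairs (4 controls in blue, 3 labelled knockouts in red). Pfkm/Pfkl, Pfkp/Pfkl, Aldoc/Aldoa, Ldhb/Ldha and Gpd2/Mdh1 separate the groups, and the points of Hk2/Hk1 rest on few Hk2 counts.

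Glis3 peaks lay near most of these genes, as near most expressed genes. A peak midpoint was within 10 kb of the 5′ end of 35 of the 39 tested genes (89.7%), against 80.5% of all tested genes, and within 1 kb of 32 (82.1%), against 71.2%. All 7 genes that rose had a peak within 10 kb, against 72.2% of all genes that rose. Of the 5 that fell, Pcx, Gpd2 and Aldoc had one, against 90.2% of all genes that fell. The nearest peak of Pdk4 was 39692 bp upstream of its start. Pfkfb2 had its nearest peak 11878 bp into the gene, and a RefSeq start at 130716048, also inside the span, lies 98 bp from a peak midpoint. Pfkfb3 had 5 peaks within its span and Pcx had 4. No peak midpoint lay within 10 kb of the listed 5′ end of Hk1, Hk2, Fbp1 or Fbp2. Hk1 had 1 peak within its span, at −3686 bp (upstream) from a second RefSeq start at 62340421. Ldha had 1 peak 304 bp into the gene and Slc16a1 had 2 within 1 kb. The peaks carry no score, so their strength could not be compared.

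**Figure D5:**
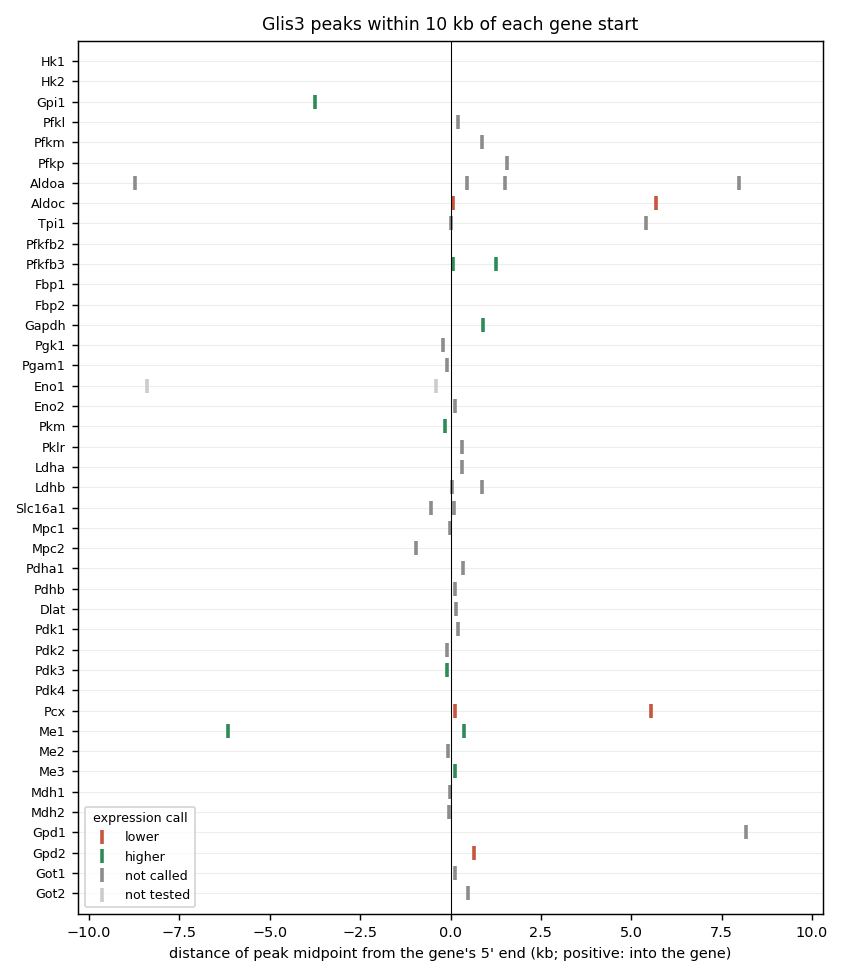
Position of each Glis3 peak midpoint within 10 kb of the 5′ end of the 42 genes, in kb, with positive distances into the gene and colours for the expression call. Most ticks lie within 1 kb of the start, and Hk1, Hk2, Pfkfb2, Fbp1, Fbp2 and Pdk4 have none in the window.

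Upstream sequences from RefSeq (GRCm38.p6, the same assembly as mm10) were read for the 6 called genes with a peak within 1 kb of the start and the smallest p, namely Pcx, Me3, Gpd2, Aldoc, Gapdh and Pdk3. Shown are the 3 in which the 250 bases before the start hold a searched motif or part of the peak. For Pcx (chr19:4510222-4510471, plus strand) the peak at 4510483 to 4510682 begins after the start, and capitals mark matches to the E-box CACGTG and to ACGTG, the core of the hypoxia response element, which CACGTG contains. For Aldoc (chr11:78322823-78323072, plus strand) capitals mark the 37 bases inside the peak at 78323036 to 78323235, and for Pdk3 (chrX:93832151-93832400, minus strand) the 140 bases inside the peak at 93832091 to 93832290, where 1 ACGTG match lies.
Pcx: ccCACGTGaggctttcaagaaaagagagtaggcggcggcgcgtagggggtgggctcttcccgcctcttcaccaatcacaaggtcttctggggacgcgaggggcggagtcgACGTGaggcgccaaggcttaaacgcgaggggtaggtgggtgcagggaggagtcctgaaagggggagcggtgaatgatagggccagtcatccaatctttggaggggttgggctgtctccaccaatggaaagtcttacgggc
Aldoc: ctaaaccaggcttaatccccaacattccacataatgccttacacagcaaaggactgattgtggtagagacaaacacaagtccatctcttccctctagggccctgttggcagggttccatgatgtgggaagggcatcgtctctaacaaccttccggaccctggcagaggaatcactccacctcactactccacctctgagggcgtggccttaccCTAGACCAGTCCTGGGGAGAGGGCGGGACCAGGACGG
Pdk3: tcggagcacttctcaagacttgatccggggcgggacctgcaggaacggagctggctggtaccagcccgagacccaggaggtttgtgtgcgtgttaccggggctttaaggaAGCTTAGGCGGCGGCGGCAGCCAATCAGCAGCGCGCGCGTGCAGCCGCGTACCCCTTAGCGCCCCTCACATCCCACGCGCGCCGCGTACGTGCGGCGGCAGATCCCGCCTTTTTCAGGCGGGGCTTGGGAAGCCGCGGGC
The Pcx stretch holds 1 E-box and another ACGTG match. Letters were searched on both strands in windows of 300 bases (250 before to 50 after a start), of which RefSeq gave 61 for 40 of the 42 genes. ACGTG was in 41.0% of these windows, against 19.6% of all 32851 windows, and CACGTG in 13.1%, against 7.15%. TGGGGGG, the core of the G-rich Glis binding site, was in 11.5%, against 8.47%. Windows of 1 gene overlap in part, so these shares are not over independent sequences. The 32851 windows are of all RefSeq promoters, whether or not the gene had a fit here, so the sets compared are unlike.

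Other genes of the pathway were taken from whole pathway lists. Of 17 tested genes of glycolysis and gluconeogenesis beyond the 42, 2 were called lower, 3 were called higher (Pck1 among them) and 12 did not pass. Their median log2 fold change was −0.23. The glucose transporter gene Slc2a2, which is also among the beta cell markers (log2 −2.49, edgeR adjusted p = 8.36e-06) and Tigar, a fructose-2,6-bisphosphatase (log2 −0.81, edgeR adjusted p = 0.00543), fell. G6pc3, the ubiquitous glucose-6-phosphatase (log2 0.70, edgeR adjusted p = 0.0034), and Bpgm, bisphosphoglycerate mutase (log2 0.61, edgeR adjusted p = 0.0433), rose, the latter with labelled knockout 1 inside the range of the controls. Pck1, the cytosolic phosphoenolpyruvate carboxykinase, was called higher, at 0, 0.09724, 0 and 0 CPM (controls 1 to 4) against 0.7425, 1.166 and 1.772 CPM (labelled knockouts 1 to 3). Its log2 fold change of 4.91 (edgeR adjusted p = 0.00607) rests on controls at or near 0 counts. Pck1 could pass the filter on low counts only through the labelled knockouts, so this p-value is not read as support for a rise. No library exceeded 1.772 CPM.

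Of 10 tested pyruvate and lactate genes, 2 were called lower, 1 was called higher and 7 did not pass, with a median of −0.15. Basigin (Bsg), the chaperone that brings monocarboxylate transporters to the membrane, stood at 557.8, 569.7, 678.7 and 704.6 CPM (controls 1 to 4) against 1514, 1273 and 1529 CPM (labelled knockouts 1 to 3). It rose (log2 fold change 1.197, SE 0.13, edgeR adjusted p = 3.52e-05). Embigin (Emb), a related chaperone, fell (log2 −0.54, edgeR adjusted p = 0.00981). Pdp2, a phosphatase that switches pyruvate dehydrogenase on, was called lower (log2 −2.32, edgeR adjusted p = 0.011). It stood at 2.02, 2.392, 2.07 and 2.154 CPM (controls 1 to 4) against 0.5198, 0.4752 and 0.31 CPM (labelled knockouts 1 to 3). Pdp2 could pass the filter on low counts only through the controls, so this p-value is not read as support for a fall. With library size alone Emb did not pass (log2 −0.37, edgeR adjusted p = 0.067). The transporter genes Slc16a3 and Slc16a7 were below 2 CPM in every library and did not pass. Of 10 other carrier and shuttle genes 0 passed the edgeR test, with 2 at an unadjusted p under 0.05, 1 called by DESeq2, 0 by limma-voom and 2 with library size alone. The 2 were the dicarboxylate carrier Slc25a10 (log2 0.63, edgeR adjusted p = 0.0838), whose groups overlapped, and the cytosolic aconitase Aco1 (log2 −0.35, edgeR adjusted p = 0.0695), whose labelled knockouts were all lower. The 2 called with library size alone were Slc25a10 and Slc25a1, both higher. The others included the aspartate-glutamate carriers Slc25a12 (log2 0.14, edgeR adjusted p = 0.458) and Slc25a13 (log2 −0.47, edgeR adjusted p = 0.416). The citrate carrier Slc25a1 stood at log2 0.23, edgeR adjusted p = 0.348.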

How the data were processed

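RNA libraries of 4 control and 3 labelled knockout mice and 1 Glis3 peak list were used. The authors deposited whole-number counts per gene without normalisation, with a symbol, an Entrez number and gene coordinates per the file headers, on mm10 per the labels. STAR 2.5, featureCounts 1.5.0-p1, DESeq2, bedtools 2.24.0, HOMER 4.9.1, Picard 1.110, Bowtie 1.2 and cutadapt 1.2.1 are listed without roles per the submitters' processing notes. The sources used here do not give the strand option, the annotation or the peak thresholds. Peaks were 200 bp intervals with no score.

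Genes were kept with filterByExpr, scaled with TMM factors and compared with edgeR 4.0.16 (robust quasi-likelihood F test, R 4.3.3), with Benjamini-Hochberg adjustment over all 14529 tested genes. The SE was taken from the F statistic (size of the log2 change over the root of F). The fit was tested on simulated counts. Libraries of a group differed by more than sampling noise (chi-square per degree of freedom 23.4 to 95.4). Ratios used counts + 0.5. Distances run from a peak's midpoint to the gene's 5′ end in the count table. Sequences came from RefSeq.

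Alternatives tried were DESeq2 1.42.0, limma-voom 3.58.1, scaling by RLE factors or by library size alone, a filter of 1 CPM in 3 libraries or none, a replicate block, an acinar marker covariate (mean log2 of CPM + 0.5), leaving out the 10 most abundant genes or each library, ratios with no pseudocount, and peak windows of 1, 50 and 100 kb. Full values per library were given for genes past the threshold, genes without overlap and the 4 genes kept low in beta cells. From other lists up to 4 called genes with the smallest p were named; Bpgm and the uncalled carriers and transporters were chosen after their values were seen. The genes and lists were chosen with earlier results of these data known. Protein sequences were not used here.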

Additional observations from a re-analysis of the deposited data

Results flagged for a closer look

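Among 49 sets of 4 control values (39 genes and 10 ratios), 4 had 1 library far from the rest by Dixon's criterion, which chance alone meets in about 1 in 20 sets. Tpi1 was high in control 4 at 92.37 CPM, Fbp1 was low in control 3 at 6.21 CPM, Pdk4 was high in control 4 at 37.43 CPM and Gpd1 was low in control 1 at 28.42 CPM. Pdk4 passed the test without control 4, as in each of the 16 alternatives. Groups of 3 were not tested in this way.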

How the results depend on the processing

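Under 16 alternatives to the fit, 11 of the 12 called genes kept their call and direction in each, and Pfkfb3 lost its call in 4 (values given with the gene). The number of genes that fell was 5 or 6 throughout, against 324 to 1063 over all tested genes. The number that rose was 7, against 12 with library size alone, which moved the median of all genes by 0.17, and 11 with DESeq2. Over all tested genes 1268 of 14529 rose, against 1854 of 14529 with library size alone and 1574 of 15860 with DESeq2. When a library was left out, 6 to 9 of these genes rose, against 934 to 1142 over all tested genes. The number of genes called higher in the other pathway lists was 8, against 13 with library size alone, and the number lower was 6, against 4 (Emb and Vegfa lost). These lists had 17, 10, 10, 16, 7 and 9 tested genes. Pck1 and Pdp2, whose p-values are not read as support, are in these counts. Over all 14529 tested genes 1268 were called higher and 763 lower, against 1854 and 324 with library size alone. Of 620 values of single genes 584 kept their side, 4 were weaker, 16 were stronger and 16 turned sign, in 5 genes without a call: with library size alone Pdhb (0.154), Dlat (0.102), Pdk2 (0.101) and Gpd1 (0.085); with the replicate block Hk1 (−0.067) and Pdhb (0.021); with the acinar covariate Hk1 (−0.062) and Dlat (0.043); and with a library left out Hk1 (−0.339 to 0.214), Pdhb (−0.117 to 0.011), Dlat (−0.175 to 0.09) and Gpd1 (−0.218 to 0.022). The cause was not tested. Slc16a1 fell below the filter in 4 alternatives and has no value there. The 10 ratios kept their sign in each alternative run; Eno2/Eno1 has no value without a pseudocount. A window of 1 kb left 32 genes with a peak, and 50 or 100 kb gave 39.

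The samples share only a replicate number, and the labels name no pairs or batches, so the main fit does not pair them. Correlations of same-numbered deviations were 0.126, 0.08 and 0.092, and 5 of 6 libraries correlated best with their own number. Whether the number marks a shared batch was not tested. With the replicate block 5 genes fell and 9 rose, against 803 and 1385 of all 14529 tested genes. Levels of Hk2, Fbp2 and Slc16a1 rest on few counts.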

Other observations

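Genes of the citric acid cycle, which takes up the pyruvate carbon, were mostly near 0. Of 16 tested, 1 fell, 1 rose and 14 did not pass, with a median log2 fold change of 0.002. Idh2, the mitochondrial NADP-dependent isocitrate dehydrogenase, stood at 136.7, 156, 168 and 166.4 CPM (controls 1 to 4) against 84.87, 79.18 and 96.9 CPM (labelled knockouts 1 to 3). It fell (log2 fold change −0.85, SE 0.13, edgeR adjusted p = 0.000432), and each labelled knockout was below each control. Idh3a, a subunit of the NAD-dependent form, rose (log2 0.41, edgeR adjusted p = 0.0343). In the pentose phosphate pathway 1 of 7 genes rose, Pgd, the 6-phosphogluconate dehydrogenase, at 31.98, 31.14, 31.78 and 30.73 CPM (controls 1 to 4) against 54.8, 40.26 and 37.33 CPM (labelled knockouts 1 to 3) (log2 fold change 0.49, SE 0.14, edgeR adjusted p = 0.0328), and 6 did not pass.

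Hypoxia response genes outside glycolysis gave 1 lower, 2 higher and 6 not passing of 9 tested, with a median of −0.15. With library size alone the list had 0 lower and 3 higher. Vegfa, the vascular growth factor gene, fell (log2 −0.51, edgeR adjusted p = 0.0128), and did not pass with library size alone (log2 −0.35, edgeR adjusted p = 0.165). P4ha1, a collagen prolyl hydroxylase subunit (log2 0.93, edgeR adjusted p = 0.000521), and Ero1l, an endoplasmic reticulum oxidase (log2 0.64, edgeR adjusted p = 0.00406), rose.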
